A study of Mus musculus with 36 samples.

Results

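The response of mouse nephron progenitor cells (NPCs) to a high dose of CHIR99021 was measured after all 4 Tcf/Lef genes had been targeted with Cas9. The comparison set 3 quadruple knockout (QKO) libraries in 5 µM CHIR against 2 QKO libraries in 1.25 µM CHIR, which are 5 of the 36 libraries of the series. Of 26472 genes in the table that holds these libraries, 15878 averaged 10 or more normalized counts over its 11 libraries and were tested. The other 6 libraries of that table are controls, 3 in each CHIR dose, in which the guide RNA targeted GFP. The question was which genes still respond to CHIR when the DNA-binding partners of β-catenin have been targeted.

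The NPCs were primary cells of embryonic mouse kidney with the genotype Cas9-eGFP, shared by QKO and control cells. They received guide RNAs together with mCherry mRNA, were kept in low (1.25 µM) CHIR for the knockout period and then spent a further day in low or high (5 µM) CHIR. mCherry-positive cells were sorted, so the sort selected transfected cells and not edited ones. A share of cells that kept 1 or more of the 4 genes cannot be told apart from a response without them. The QKO low group holds replicates 1 and 3, and nothing in the labels says whether replicates came from separate animals, so p-values measure the spread between these samples. In bulk RNA, fewer cells of a type and less RNA per cell cannot be told apart.

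CHIR inhibits the kinase GSK3β, which otherwise marks β-catenin for destruction. Stabilised β-catenin has no DNA-binding domain and reaches Wnt target genes through Tcf7, Tcf7l1, Tcf7l2 and Lef1. The paper describes Tcf7 and Lef1 as mostly activators, Tcf7l1 as a repressor and Tcf7l2 as able to do both. In the kidney, low Wnt input supports the expansion of Six2-positive progenitors, and stronger input starts their conversion into nephron epithelium, with the onset of Wnt4, Lhx1 and Jag1.

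The guide sequences are shown because the knockout rests on them. Lower case marks the protospacer, 5′ to 3′ with T for U. Capitals mark the PAM, the 3 bases that follow the protospacer on its own strand.
Tcf7: agctgggggacgccatgtggAGG
Tcf7l1: cttaaaaaaagcgccatcctGGG
Tcf7l2: ttagcggccaagaggcaagaTGG
Lef1: ctcccaggaaagcatccaga
The Tcf7 site lies at chr11:52261584-52261603 (GRCm38) in coding sequence of 2 of 2 annotated transcripts. The Tcf7l1 site lies at chr6:72788307-72788326 in coding sequence of 3 of 5 transcripts. The Tcf7l2 site, at chr19:55743069-55743088, lay whole within an exon of 1 retained-intron transcript of 22 and overlapped an exon of 15 others in part. The Lef1 guide is printed without a PAM or position, since it was matched to transcripts only and none of 8 held it in 1 run.

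The mRNA of the targeted genes was measured in every library and does not report on the protein, because a small Cas9 deletion can leave the transcript in place. The paper stained for the proteins with each guide used alone. It reported removal of most Tcf7l1, Tcf7l2 and Lef1 but of less Tcf7. Single guides were used at a higher amount per well than each guide in the quadruple knockout. With all guides combined, the paper reported fewer Jag1-positive cells in high CHIR. Protein left in the sequenced cells was not measured here. Tcf7l1, the repressive member of the family, was at 827 and 1286 normalized counts in QKO low replicates 1 and 3, and at 602, 539 and 736 in QKO high. Control cells had 2225, 1774 and 1736 in low and 612, 486 and 591 in high CHIR. QKO low was thus below control low in every library, while the QKO high and control high ranges overlapped. Over all genes tested, QKO low lay whole above control low for 10.2% and whole below it for 6.25%, and QKO high lay above control high for 11.1% and below it for 8.8%. These shares are the background for the single genes below whose QKO and control levels do not overlap. Tcf7 was at 66.2 and 97.7 in QKO low and 109.5, 179.7 and 127 in QKO high, against 220.1, 220.1 and 141 in control low and 534, 535 and 268 in control high. Tcf7l2 was at 1575 and 1695 in QKO low and 999, 1616 and 1481 in QKO high, within or near the control range of 1263 to 2233. Between the CHIR doses in QKO, the log2 differences of Tcf7l1 (-0.73 ± 0.21 SE, adjusted p = 0.106), Tcf7 (0.75 ± 0.35, adjusted p = 0.357) and Tcf7l2 (-0.29 ± 0.24, adjusted p = 0.655) did not pass the test.

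Lef1 is also a Wnt target and was the one targeted gene that rose in QKO. Its levels were 87.1 and 21.5 in QKO low and 255, 441 and 513 in QKO high, against 119.9, 25.7 and 19.9 in control low and 1504, 2743 and 1144 in control high. The QKO groups did not overlap, and every QKO high library was below every control high library. The rise was 3.12 ± 0.73 on the log2 scale (limma, adjusted p = 0.0462), against 5.37 in the control (adjusted p = 0.000198). The adjusted p was near the threshold of 0.05, and the call was kept in 3 of 11 fits that left out 1 library. The log2 rise ranged from 2.14 to 4.11 over these fits. Fits without QKO low replicate 1 or 3 leave 1 library in that group.

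**Figure D1:**
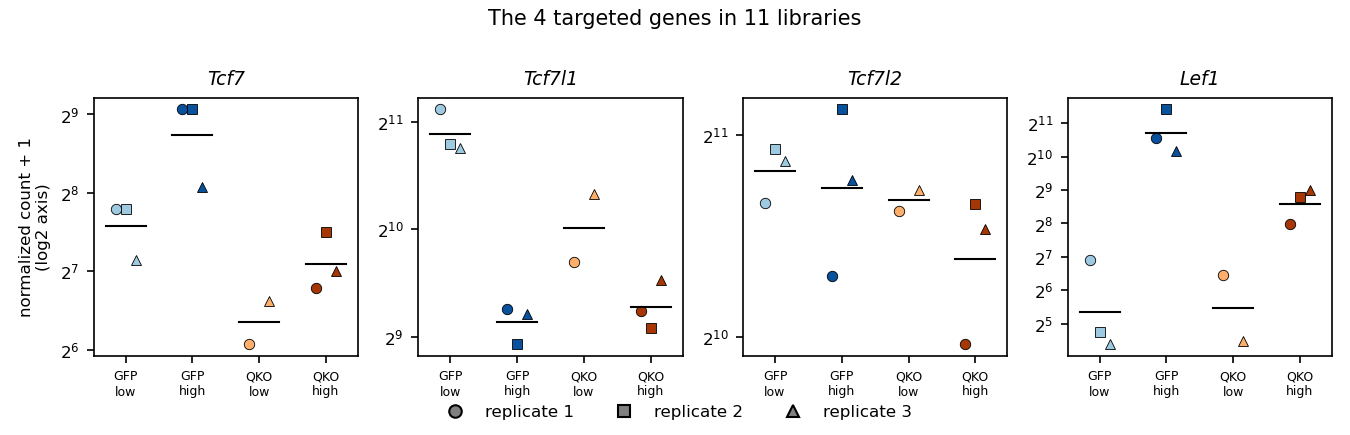
Normalized count + 1 of the 4 targeted genes in each of the 11 libraries, on a log2 axis, by group (GFP, control). Each point is 1 library and each bar the mean of the log2 values. Lef1 is higher in all 3 QKO high libraries than in both QKO low libraries, and Tcf7l1 is lower in QKO low than in control low.

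Recovered depth ranged from 13089780 to 20152719 reads over 10 libraries. The progenitor markers were abundant, the summed level of the self-renewal list being 28863 to 33126 in QKO low and 17237 to 19327 in QKO high. The summed level of 12 stroma markers was 19665 in QKO low replicate 1 but 3139 in QKO low replicate 3, and 11813, 4299 and 1497 in QKO high replicates 1 to 3. Replicate 1 was the highest of its group for these markers in QKO and control cells alike, with 11040 in control low and 5991 in control high. Foxd1 and Tbx18 were below the mean of 10. Summed blood markers reached 3091 in control high replicate 1 against 30.9 to 200 elsewhere, and the other defining markers of endothelium (Kdr, Cdh5) and ureteric epithelium (Ret, Wnt11) were below the mean of 10. Counts without the libraries numbered 1 are given beside the totals, from a fit that leaves 1 library in QKO low. The part of these cells in single results was not tested.

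QKO cells kept a response in both directions. In QKO, 225 genes rose (1.42% of those tested) and 178 fell (1.12%) (limma, Benjamini-Hochberg adjusted p under 0.05, with a log2 difference of 0.5 or more in size). In the control, 1108 rose (6.98%) and 1264 fell (7.96%). The median difference over all genes was -0.01 in QKO and 0.00 in the control. With the replicate number as a block, the QKO counts were 506 up (3.19%) and 446 down (2.81%), and the control counts 1487 (9.37%) and 1834 (11.6%). Levels of all QKO high libraries lay above both QKO low libraries for 18.3% of the genes tested and below them for 19.8%, which is the background for the single genes below whose QKO groups do not overlap. Without the 4 libraries numbered 1 they were 124 up and 38 down, a choice made after seeing the stroma markers. Single libraries mattered as well, with 92 up and 49 down without QKO low replicate 1, 109 and 27 without QKO low replicate 3, 87 and 42 without QKO high replicate 2, 104 and 92 without QKO high replicate 3, 205 and 102 without QKO high replicate 1, and 170 and 106 without control low replicate 2. Fits without QKO low replicate 1 or 3, or without the libraries numbered 1, leave 1 library in QKO low. The QKO and control contrasts share no library. Their calls are still not independent, since both take the spread of each gene from 1 fit of all 11 libraries. Of the 225 genes that rose in QKO, 201 also rose in the control (89.3% of the QKO genes and 18.1% of the control genes). Of the 178 that fell, 169 also fell in the control (94.9% and 13.4%), and no gene was called in opposite directions in this fit. With the block, the shares of the QKO genes were 83.8% (424 of 506) and 91.5% (408 of 446), and 2 genes raised in QKO were called lower in the control.

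**Figure D2:**
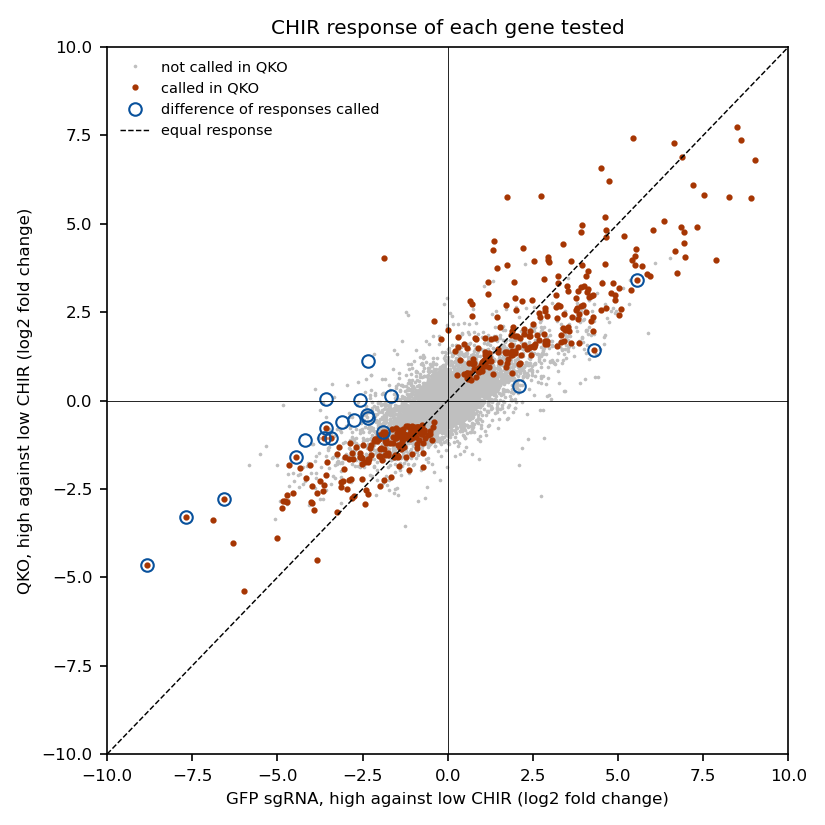
Log2 fold change of high against low CHIR for each gene tested, in the control on the horizontal axis and in QKO on the vertical axis, with the called genes in colour. Of 225 genes raised in QKO, 201 were raised in the control, and none was lowered there.

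Of 27 tested members of the nephron induction list, 14 rose and 1 fell in QKO, against 25 and 1 in the control. With the block, 18 rose and 1 fell in QKO. The list median was 2.0 in QKO and 3.23 in the control. Lhx1 (chr11:84518284-84525535), a LIM homeobox factor needed for the renal vesicle, led all genes that passed the rule. It was at 3.49 and 13.7 normalized counts in QKO low and at 844, 2809.7 and 2188 in QKO high. Control cells went from 6.12, 16.8 and 9.51 to 2762, 7241 and 3135. The doses were far apart in both genotypes, while the QKO high and control high ranges overlapped. The rise was 7.74 ± 0.63 on the log2 scale in QKO (adjusted p = 7.41e-05) and 8.50 in the control (adjusted p = 2.72e-06), and the difference of the responses was -0.76 (95% interval -2.59 to 1.07, adjusted p = 1).

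Wnt4, the ligand that drives the transition of induced progenitors to epithelium, ended lower in QKO. It was at 68.5 and 40.1 in QKO low and 1571, 1254 and 1553 in QKO high, against 24.5, 22.7 and 31.1 in control low and 5906, 2331 and 2663 in control high. QKO was above control in low CHIR and below it in high CHIR, in every library. The rise was 4.76 ± 0.36 in QKO (adjusted p = 3.79e-05) and 6.95 in the control. The difference of -2.19 (95% interval -3.23 to -1.14) had an adjusted p of 0.152, and of 0.0389 with the replicate block.

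Jag1, a Notch ligand of the nascent nephron, was at 141 and 222 in QKO low and 3139, 6952 and 5913 in QKO high. Control cells had 125, 159 and 286 in low CHIR and 7179.9, 18709 and 12083 in high CHIR, all 3 above the highest QKO library. Its rise was 4.83 ± 0.45 in QKO (adjusted p = 0.000197) and 6.03 in the control, and the difference was -1.20 (95% interval -2.51 to 0.11).

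Emx2, a homeobox factor of the urogenital system, was at 2.32 and 4.89 in QKO low and 80.8, 445 and 359.6 in QKO high. In the control it went from 2.45, 1.97 and 0.865 to 985, 2489.8 and 851. All QKO high libraries lay below the control high libraries. The rise was 5.74 ± 0.68 in QKO (adjusted p = 0.00105) and 8.90 in the control. The difference of -3.16 (95% interval -5.15 to -1.17) did not pass the test (adjusted p = 0.402).

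Pax8, a paired-box factor of nephron commitment, was at 1418 and 2929 in QKO low and 4663, 8586 and 9364 in QKO high, close to the control's 4183, 6801 and 7114 in high CHIR. Its rise of 1.82 ± 0.39 (adjusted p = 0.0338) stood beside 1.98 in the control, and it was not called without control low replicate 2, control high replicate 2, QKO low replicate 1, QKO high replicate 2 or QKO high replicate 3 (adjusted p up to 0.289). Of the other members, Bmp2, Ccnd1, Cdh6, Dll1, Vegfc, Pou3f3, Dach1, Sox11 and Lef1 rose. In fits without 1 library, Cdh6 was called in 10 of 11, Dach1 in 9, Vegfc in 8, Pou3f3 in 7 and Dll1 and Sox11 in 6. Their adjusted p was highest without QKO low replicate 3 for Cdh6 (0.0558) and Vegfc (0.139), and without QKO low replicate 1 for Dach1 (0.0753), Pou3f3 (0.159), Dll1 (0.256) and Sox11 (0.256). The member that fell was Sox9, a transcription factor of epithelial progenitors in kidney. It went from 874 and 1162 to 311, 266 and 323 in QKO (-1.75 ± 0.23, adjusted p = 0.00179) and fell in the control as well (-2.34).

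**Figure D3:**
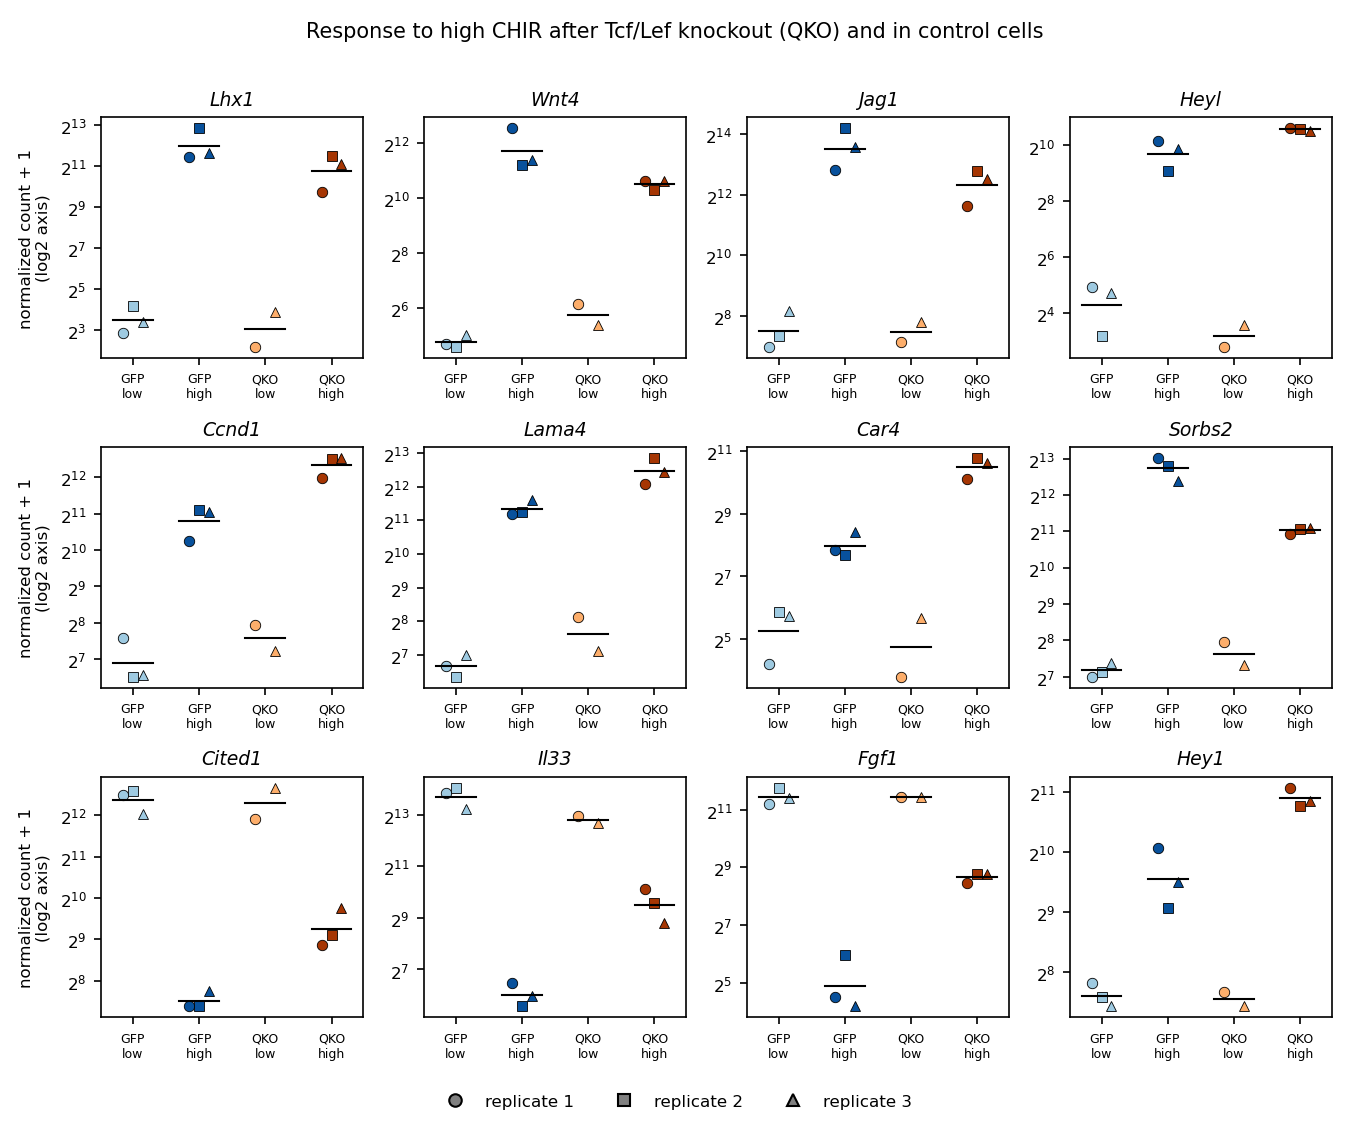
Normalized count + 1 of 12 genes in each of the 11 libraries, on log2 axes, by group (GFP, control). Each point is 1 library and each bar the mean of the log2 values. Heyl, Hey1 and Car4 are higher in QKO high than in control high, whereas Sorbs2 and Jag1 are lower.

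Several genes, effectors of Notch among them, were higher in every QKO high library than in every control high library, as were 11.1% of all genes tested. Heyl (chr4:123233556-123249875), an effector of Notch signalling, was at 5.81 and 10.8 in QKO low and at 1574, 1536 and 1484 in QKO high. Control cells had 29.4, 7.9 and 25.1 in low CHIR and 1134, 541 and 941 in high CHIR. The high-dose groups did not overlap, with QKO above the control. The rise was 7.42 ± 0.48 in QKO (adjusted p = 1.52e-05) and 5.44 in the control, and the difference of 1.98 (95% interval 0.58 to 3.38) did not pass the test (adjusted p = 0.529).

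Hey1, a related effector, was at 201 and 170.1 in QKO low and 2150.3, 1739 and 1843 in QKO high, against 223, 189 and 170.3 in control low and 1065, 532 and 722 in control high. Levels overlapped in low CHIR and were apart in high CHIR. The rise was 3.36 ± 0.25 in QKO (adjusted p = 3.79e-05) and 1.94 in the control. The difference was 1.42 (95% interval 0.68 to 2.15), with an adjusted p of 0.206, and of 0.0197 with the replicate block. In the Notch pathway list, 4 of 14 tested members rose in QKO (Jag1, Dll1, Hey1 and Heyl) and none fell, with a median of 0.44 in QKO and 0.39 in the control, where 5 rose and 3 fell. With the block, 6 rose in QKO.

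Car4, a membrane-bound carbonic anhydrase, was at 12.8 and 49.8 in QKO low and 1105, 1757 and 1566 in QKO high. The control reached 228, 204 and 337 in high CHIR from 17.1, 56.3 and 51.9 in low CHIR. Every QKO high library was above every control high library. The rise was 5.78 ± 0.56 in QKO (adjusted p = 0.000256) and 2.73 in the control (adjusted p = 0.00312). The difference of 3.05 (95% interval 1.41 to 4.69) had an adjusted p of 0.232, and of 0.0245 with the replicate block.

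Ccnd1, which encodes the G1 cyclin D1 and is often listed as a Wnt target, was at 243 and 149 in QKO low and 4051, 5856 and 5934 in QKO high. The control went from 189.6, 90.8 and 93.4 to 1225, 2219.8 and 2126. QKO high was above control high in every library. The rises were 4.77 ± 0.36 in QKO (adjusted p = 3.79e-05) and 3.93 in the control, and their difference of 0.84 had a 95% interval of -0.21 to 1.89. Lama4, a laminin chain of basement membranes, showed the same order, at 276 and 139 in QKO low, 4368, 7395 and 5521 in QKO high and 2329, 2430.2 and 3083 in control high. It rose by 4.84 ± 0.30 in QKO (adjusted p = 1.52e-05) and 4.66 in the control. Of 17 tested basement membrane genes, Lama4 and Lamb1 rose and Lamb2 fell in QKO (median 0.28), and in the control 3 rose and 3 fell (median 0.09). Without QKO low replicate 3 the adjusted p was 0.0526 for Lamb1 and 0.271 for Lamb2, which was called in 4 of 11 fits without 1 library.

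Other genes that rose most in QKO and passed the rule were Lhx1os, Clec18a, Grb7, Krt23, E330013P04Rik, Emx2os and AC141471.4, with log2 fold changes from 5.76 to 7.38. Clec18a (chr8:111058920-111092426), a C-type lectin gene, was at 3.49 and 7.82 in QKO low and 807, 1236 and 955 in QKO high, within the control high range of 765 to 1245. Grb7, an adaptor of receptor tyrosine kinases, was at 1.16 and 16.6 in QKO low and 342, 922 and 1258 in QKO high, against 1396, 1676 and 2368 in control high. Krt23 and Krt39, which encode keratins of epithelial cells, were at 0 in both QKO low and all 3 control low libraries. Krt23 was at 54.8, 207 and 117 in QKO high, at least 15.7-fold above the floor of 3 reads per library taken at the lowest of the high libraries, and at 435, 1023 and 312 in control high. Krt39 was at 13.9, 55.1 and 31.8 in QKO high, at least 3.99-fold above the floor, and at 97.2, 167 and 91.4 in control high. All 10 of the most raised genes were called in each of the 11 fits that left out 1 library. Emx2os overlaps the start of Emx2, and with libraries that do not mark strand the reads they share cannot be told apart. For genes within a few reads of 0 in low CHIR, the fold change depends on the pseudocount of 1.

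Fewer progenitor genes were called lower in QKO than in the control. Of 14 tested self-renewal genes, 3 fell in QKO (Cited1, Osr1 and Meox2) and none rose, against 9 that fell in the control. The medians were -0.86 and -2.24. With the block, 5 fell in QKO, Eya1 and Hoxd11 being the additional ones. Cited1, a transcriptional coactivator found in the least differentiated progenitors, was at 3836 and 6510.1 in QKO low and 465, 553 and 859 in QKO high, against 5775, 6182 and 4179 in control low and 167, 165 and 215 in control high. QKO high stood between both low groups and control high without overlap. Cited1 fell by 3.05 on the log2 scale in QKO (SE 0.29, adjusted p = 0.000212) and by 4.87 in the control. The difference of 1.82 (95% interval 0.98 to 2.66) had an adjusted p of 0.132, and of 0.0381 with the block.

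Six2, the homeobox factor that maintains the progenitor state, was at 1162 and 1464 in QKO low and 665, 607 and 685 in QKO high, against 3148, 2502 and 1206 in control low and 246, 137 and 271 in control high. The QKO dose groups did not overlap, and QKO high stayed above control high. The QKO difference of -1.0 ± 0.37 did not pass the test (adjusted p = 0.21), while Six2 fell by 3.34 in the control. The difference of the responses was 2.34 (95% interval 1.26 to 3.41), with an adjusted p of 0.131, and of 0.0473 with the block. Osr1, a zinc-finger factor of intermediate mesoderm, was at 906 and 1669 in QKO low, 402, 258 and 392 in QKO high and 104, 52.6 and 77.6 in control high. It fell by 1.84 in QKO (SE 0.34, adjusted p = 0.0152) and by 4.06 in the control, and the QKO call was lost without QKO low replicate 3 or QKO high replicate 2 (adjusted p up to 0.162). The difference of 2.22 had an adjusted p of 0.122, and of 0.00819 with the block.

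The most lowered genes by the rule were Sst, Ch25h, Col9a1, Matn1, Il33, Ptpn5, Tgfbi, Cited1, Robo2 and Gm15663, of which Cited1 is in the self-renewal list. Tgfbi, a secreted matrix protein, went from 8555 and 6503 to 1147, 785 and 729.9 in QKO. The control went from 8430.2, 7436 and 7593 to 1069.7, 254 and 485, so the high-dose groups overlapped. The falls were 3.10 on the log2 scale in QKO (fell by 3.10, SE 0.43, adjusted p = 0.00314) and 3.94 in the control (fell by 3.94), and the difference was 0.84 (95% interval -0.43 to 2.11). Robo2, a receptor for Slit ligands, was at 3778 and 6607 in QKO low and 595, 501 and 982 in QKO high, overlapping the control high range of 383 to 521. Robo2 fell by 2.91 in QKO (SE 0.32, adjusted p = 0.000631). Of the 10 genes, 6 were called in all 11 fits without 1 library. The exceptions were Sst, the gene of the hormone somatostatin (adjusted p up to 0.226), Col9a1, a cartilage collagen (0.28), Matn1, a cartilage matrix protein (0.268), and Gm15663 (0.0516). The adjusted p was highest without QKO low replicate 1 for Col9a1 and without QKO low replicate 3 for the other 3. Sst lost its call without QKO low replicate 3 or QKO high replicate 2, and Gm15663 without QKO low replicate 3. Col9a1 and Matn1 lost theirs in 6 of the 11 fits each.

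Of 12 tested feedback targets of Wnt signalling, Znrf3 and Sp5 rose in QKO, against 7 genes in the control. The list medians were 0.81 in QKO and 1.81 in the control, and with the block 4 rose and 1 fell in QKO. Axin2, a scaffold of the destruction complex and a general Wnt target, was at 68.5 and 112 in QKO low and 156, 192 and 191 in QKO high, against 83.2, 79 and 56.2 in control low and 480.5, 346 and 197 in control high. The QKO dose groups did not overlap, and all QKO high libraries were below control high, but the QKO difference of 1.02 ± 0.36 did not pass the test (adjusted p = 0.189). In the control Axin2 rose by 2.14 (adjusted p = 0.00077). Znrf3, a ubiquitin ligase that removes Frizzled receptors, was at 1334 and 1258 in QKO low and 2368, 2558 and 2533 in QKO high, near the control high range of 2566 to 2987. It rose by 0.94 ± 0.14 in QKO (adjusted p = 0.00425) and 1.20 in the control, and its QKO call was lost without QKO low replicate 3 (adjusted p = 0.0522).

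Sp5, a zinc-finger factor induced by Wnt signalling in many tissues, was at 0 and 0.977 in QKO low and 5.22, 28 and 41.5 in QKO high, against 94.8, 246 and 86.1 in control high. All QKO high libraries lay below the control high libraries. The QKO low value is 1 read in all, so no fold is given. The adjusted p in QKO was 0.0432, and the call was kept in 3 of 11 fits without 1 library (adjusted p up to 0.266 without QKO low replicate 1).

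The promoters of Sp5 and of 1 start of Sorbs2, a gene whose response differed between genotypes, are shown because Sp5 is a Wnt feedback gene and Sorbs2 was the only one of the 14 difference-called genes with a promoter in the table that held a match. Capitals mark the motifs ATCAAAG and AACAAAG, searched on both strands, with CTTTGAT and CTTTGTT as their reverse complements. The sequences are the 250 bases before the start from RefSeq (GRCm38.p6), on the strand of the gene, at chr2:70474673-70474922 (+) and chr8:45661743-45661992 (+).
Sp5: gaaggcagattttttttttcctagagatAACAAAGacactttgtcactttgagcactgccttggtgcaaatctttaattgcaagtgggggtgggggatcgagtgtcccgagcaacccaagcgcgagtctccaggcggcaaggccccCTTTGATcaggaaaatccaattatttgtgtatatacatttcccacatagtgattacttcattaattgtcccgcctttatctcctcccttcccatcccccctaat
Sorbs2: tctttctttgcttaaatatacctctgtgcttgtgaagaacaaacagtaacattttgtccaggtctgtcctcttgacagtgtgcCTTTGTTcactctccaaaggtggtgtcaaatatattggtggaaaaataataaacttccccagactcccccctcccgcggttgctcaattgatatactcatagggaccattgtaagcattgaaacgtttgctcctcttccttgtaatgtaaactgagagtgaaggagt
A gene was counted if any of its promoters matched. Either motif was present for 9.21% of all genes with a promoter and for 6.72% of those tested. It was present for 7.69% of the genes raised in QKO (11 of 143) and 7.81% of those lowered (10 of 128), against 7.5% (56 of 747) and 5.18% (48 of 927) in the control. Genes with several starts had more sequence to search. A match in these letters is a description and not a binding site.

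Among Wnt ligands and receptors, Wnt4 and Fzd6 rose and Fzd2 fell of 20 tested in QKO, with medians of -0.19 in QKO and -0.23 in the control, where 4 rose and 6 fell. With the block, 4 rose and 4 fell in QKO. Fzd6, a Frizzled receptor, went from 20.9 and 29.3 to 113, 142 and 128 in QKO, below the control high range of 217 to 492. It rose by 2.32 ± 0.36 (adjusted p = 0.00596), a call lost without QKO low replicate 1 (adjusted p = 0.0726). Fzd2 was called in 3 of 11 fits without 1 library, with an adjusted p of up to 0.211 without QKO low replicate 3.

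Of 19 tested BMP pathway genes, 4 rose in QKO (Bmp2, Bmp4, Bmpr1b and Id4) and none fell, against 5 and 1 in the control. With the block, 5 rose and 1 fell in QKO. The list medians were -0.02 in QKO and 0.11 in the control. Bmp2, a ligand of the pathway, was at 25.6 and 65.5 in QKO low and 575, 709 and 694 in QKO high, within the control high range of 555 to 859.6. It rose by 3.97 ± 0.33 (adjusted p = 8.75e-05), against 2.95 in the control, and the difference was 1.02 (95% interval 0.05 to 1.98, adjusted p = 0.942). Bmp4 and Id4 were each called in 6 of 11 fits without 1 library (adjusted p up to 0.259 without QKO low replicate 3 and 0.175 without QKO low replicate 1), and Bmpr1b in 10 (0.0877 without QKO low replicate 1).

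In the Fgf pathway, 3 of 22 tested genes fell in QKO (Fgf1, Spry4 and Etv1) and none rose, with medians of -0.32 in QKO and -0.18 in the control, where 2 rose and 4 fell. With the block, 5 fell in QKO. Spry4, a feedback inhibitor of receptor tyrosine kinase signalling, was at 2192 and 2389.6 in QKO low and 1053, 1229 and 1211 in QKO high, near the control's 985, 962 and 991. It fell by 0.98 in QKO (SE 0.13, adjusted p = 0.00215) and by 1.20 in the control, with a difference of 0.22 (95% interval -0.16 to 0.60). Etv1, an ETS factor downstream of Fgf receptors, was at 2341 and 1906 in QKO low, 995, 824 and 761 in QKO high and 195, 166 and 366 in control high. It fell by 1.30 in QKO (SE 0.28, adjusted p = 0.031) and by 3.19 in the control. The QKO call was kept in 6 of 11 fits without 1 library (adjusted p up to 0.222 without QKO low replicate 1), and the difference of 1.89 had an adjusted p of 0.112, and of 0.04 with the block.

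Gene groups linked to GSK3 by routes other than Tcf/Lef factors were read beside these. None of 19 NRF2 targets, 32 SREBP and cholesterol genes, 29 lysosomal genes or 24 glycogen and glycolysis genes was called in QKO. Their medians were 0.28, 0.20, -0.11 and 0.22. Over all genes tested, 1.42% rose and 1.12% fell in QKO. At those shares, lists of the sizes in this paragraph would hold few calls or none. The control medians were 0.32, 0.45, -0.03 and 0.19, with 1, 3, 3 and 8 genes raised and 1, 0, 2 and 1 lowered. With the block, 1, 2, 1 and 3 genes rose in QKO, the last being the glycolytic genes Gapdh, Eno1 and Pkm. In the Myc network, Mxd4, a Myc antagonist, fell of 10 tested (-1.56 ± 0.19, adjusted p = 0.00115, against -1.45 in the control), and the list median was -0.36 in both. Of 19 immediate early genes, only Egr2, a zinc-finger factor, was called in QKO and fell (-1.96 ± 0.43, adjusted p = 0.0378). It was at 1101 and 1893 in QKO low and 218, 467 and 500.4 in QKO high, with a control difference of -1.12 (adjusted p = 0.0734), and was called in 4 of 11 fits without 1 library (adjusted p up to 0.261 without QKO low replicate 3). The immediate early medians were 0.43 in QKO and 0.98 in the control, where 6 rose and 1 fell. No interferon gene of 15 (medians -0.18 and -0.53) or p53 target of 16 (medians -0.15 and -0.68) was called in QKO, while 0 and 1 rose and 3 and 6 fell in the control, and with the block 1 p53 target, Gdf15, rose in QKO. Of 43 S-phase genes 1 rose and of 54 G2/M genes none was called in QKO, with medians of 0.26 and 0.06, against 0.27 and -0.04 in the control, where 6 S-phase genes rose and 2 G2/M genes fell. With the block, 4 S-phase genes and 1 G2/M gene rose in QKO.

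Junction and keratin genes rose in 3 of 20 tested cases in QKO (Marveld2, Krt23 and Krt39), and in 10 cases in the control, where 2 fell. The medians were 0.56 and 1.23, and with the block 4 rose and 2 fell in QKO. Marveld2, a tight-junction protein, was called in 7 of 11 fits without 1 library (adjusted p up to 0.21 without QKO low replicate 1). Markers of other cell types moved as well. Wfdc2, of the ureteric list but also present in other kidney epithelia, rose (5 tested, median 0.82 in QKO and 1.27 in the control, where 3 rose), and the summed ureteric markers were 575 to 743 in QKO low and 1312 to 2515 in QKO high. Of 6 tested endothelial markers, Tek and Cldn5 rose in QKO (median 1.31, against 0.73 in the control, where 2 rose), with sums of 316 to 366 in QKO low and 339 to 412 in QKO high. Meis1 fell among 10 tested stroma markers (median -0.70 in QKO and -1.06 in the control, where 1 fell), and with the block 1 rose and 3 fell in QKO. Wfdc2 was called in 8 of 11 fits without 1 library, and Tek and Meis1 in 7. Their adjusted p reached 0.116 and 0.19 without QKO low replicate 1 for Wfdc2 and Tek, and 0.168 without QKO low replicate 3 for Meis1. No blood marker of 5 tested was called in QKO. Cldn5, a claudin, is of the 24 raised genes that were not called in the control. It was at 3.49 and 0.977 in QKO low and 47.8, 81 and 45.3 in QKO high, against 3.3, 14.2 and 5.32 in control high. The rise was 4.26 ± 0.65 in QKO (adjusted p = 0.00532) and the control difference 1.34 (adjusted p = 0.154). The difference of 2.92 did not pass the test (adjusted p = 0.442), and the QKO call was lost without QKO low replicate 3 (adjusted p = 0.0599).

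**Figure D4:**
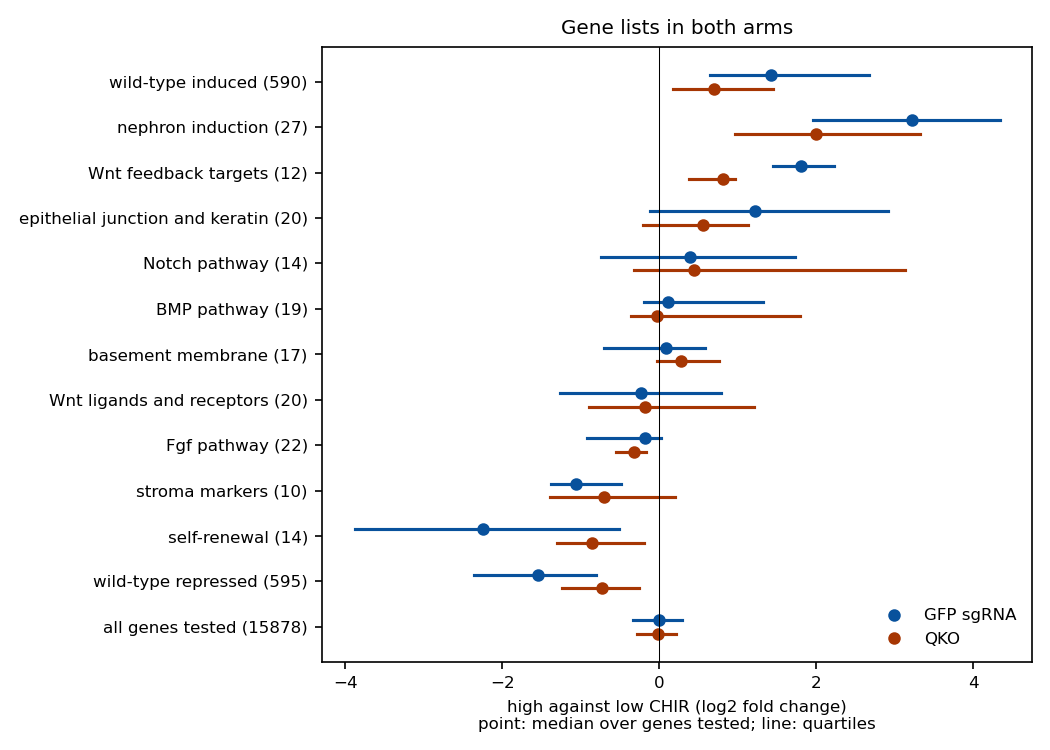
Median log2 fold change of high against low CHIR for each gene list, in QKO and in the control. The nephron induction median is 2.0 in QKO and 3.23 in the control, and the self-renewal median is -0.86 and -2.24. Wnt feedback targets (0.81 and 1.81) and junction and keratin genes (0.56 and 1.23) also lie above 0. Stroma markers (-0.70 and -1.06) lie below it. The wild-type induced list is at 0.69 and 1.43, and the repressed list at -0.73 and -1.54. Medians of the BMP, Fgf, Notch, basement membrane, and Wnt ligand and receptor lists lie between -0.32 and 0.44 in both.

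The size of the residual response was read on genes chosen in other libraries, those of unedited wild-type NPCs. There, 694 genes rose (3.99%) and 628 fell (3.61%) in high against low CHIR at a log2 fold change of at least 1. Of the 590 induced genes tested here, 89 rose and 4 fell in QKO, against 349 and 6 in the control. Their median was 0.69 in QKO and 1.43 in the control, a ratio of 48.7%. Of the 595 repressed genes tested, 89 fell and 5 rose in QKO, against 388 and 4. Their median was -0.73 and -1.54, a ratio of 47.6%. The QKO change had the sign of the wild-type change in 486 induced and 511 repressed genes. Measured in the wild-type direction, it fell short of the control change in 516 and 540. This signed comparison also counts genes that moved the opposite way in QKO. Within replicate 1 the ratios were 37.4% for induced and 44.6% for repressed genes, and within replicate 3 they were 58.9% and 55.3%. With the block, 156 induced genes rose and 172 repressed genes fell in QKO.

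The genes that moved most in wild-type NPCs differed among themselves. Of the 5 most induced, Krt23 and Krt39 rose in QKO, while Msx1 (3.03, adjusted p = 0.054), Tmem59l (1.60, adjusted p = 0.173) and Sptlc3 (adjusted p = 0.0725) were below the threshold. Msx1, a homeobox factor of BMP and Wnt signalling, was at 0 and 3.91 in QKO low and 12.2, 24.9 and 16.4 in QKO high, below the control high range of 39.3 to 178. With the block the adjusted p was 0.0462 for Msx1 and 0.039 for Sptlc3. Of the 5 most repressed, Osr1 and Meox2 fell, and AC166821.1, Gm29418 and C1ql4 were not called. C1ql4 was called with the block (adjusted p = 0.0231).

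The test of the difference itself named the genes whose CHIR response was not the same in QKO and control. It called 17 genes with a positive difference (0.107%) and 3 with a negative one (0.0189%), and for all 20 the log2 difference was smaller in size in QKO than in the control. All 17 had fallen and all 3 had risen in the control. With the block, 98 positive (0.617%) and 38 negative (0.239%) differences were called, the 20 among them. Without the 4 libraries numbered 1 none was called by limma in either direction (607 genes at an unadjusted p under 0.05). That fit leaves 1 library in QKO low. The QKO and control groups were transfected with different guides, and the difference rests on all 11 libraries.

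Il33 (chr19:29925114-29960718), which encodes a nuclear cytokine of the interleukin-1 family, had the largest positive difference. It was at 7859 and 6510.1 in QKO low and 1120.4, 769 and 450.3 in QKO high, against 14469, 16829 and 9579.5 in control low and 88.2, 46.5 and 61.7 in control high. QKO high stood above control high in every library, and QKO low stood below control low. Il33 fell by 3.29 in QKO (SE 0.36, adjusted p = 0.000585) and by 7.69 in the control, a difference of 4.40 (95% interval 3.34 to 5.46, adjusted p = 0.00634). The call was lost without QKO low replicate 3 (adjusted p = 0.0548).

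Ch25h, which encodes cholesterol 25-hydroxylase, was at 387 and 702 in QKO low and 36.5, 8.31 and 25.1 in QKO high. It was at 971, 1148 and 930.2 in control low and 1.65, 1.01 and 1.06 in control high. The control high libraries held 4 reads in all, and the difference of 4.19 (adjusted p = 0.0424) was not called at a pseudocount of 5. Ch25h fell by 4.64 in QKO (SE 0.49, adjusted p = 0.000454).

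Fgf1, a ligand of Fgf receptors, was at 2807 and 2789 in QKO low and 349, 435 and 432 in QKO high, against 2347, 3492 and 2705 in control low and 21.4, 61.7 and 17 in control high. The low-dose groups overlapped, and QKO high was above control high in every library. Fgf1 fell by 2.79 in QKO (SE 0.41, adjusted p = 0.00394) and by 6.58 in the control, a difference of 3.79 (95% interval 2.60 to 4.98, adjusted p = 0.0288).

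Ndnf, a secreted factor, was at 48.8 and 40.1 in QKO low and 92.1, 119 and 84.8 in QKO high, and at 10.7, 12.1 and 20.2 in control high. Its QKO difference of 1.13 did not pass the test (adjusted p = 0.157), and the difference of the responses was 3.45 (adjusted p = 0.0288).

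Among progenitor genes and receptors, Tmem100, a membrane protein, and Meox2, a homeobox factor, also differed. Tmem100 was at 1714 and 1663 in QKO low and 1553, 571 and 516 in QKO high, against 102, 74.8 and 104 in control high, and its difference was 3.06 (adjusted p = 0.0444). QKO high replicate 1 stood apart from the other 2, and without it Tmem100 was called lower in QKO. Meox2 was at 1621 and 2141 in QKO low and 606, 541 and 692 in QKO high, against 79.9, 70.8 and 191 in control high. Meox2 fell by 1.61 in QKO (SE 0.34, adjusted p = 0.0298) and by 4.47 in the control, a difference of 2.86 (adjusted p = 0.0424), and the QKO call was kept in 5 of 11 fits without 1 library (adjusted p up to 0.212 without QKO low replicate 3). Fzd4, a Frizzled receptor, was at 1436 and 1272 in QKO low and 903, 989 and 1004 in QKO high, against 269, 416 and 298 in control high. Its difference was 1.87 (adjusted p = 0.0288), with -0.49 in QKO (adjusted p = 0.271) and -2.35 in the control. Gstm1, a glutathione transferase and NRF2 target, had a difference of 1.94 (adjusted p = 0.0464), with -0.42 in QKO and -2.36 in the control.

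The 3 negative differences were those of Lhfpl2, Sorbs2 and Hdac6. Sorbs2 (chr8:45507788-45827906), an adaptor of actin and cell adhesion whose promoter is shown above, was at 245 and 159 in QKO low and 1931, 2159 and 2189 in QKO high, against 127, 140.1 and 165 in control low and 8297, 7129 and 5299 in control high. The low groups overlapped and the high groups were far apart. It rose by 3.40 ± 0.22 in QKO (adjusted p = 1.52e-05) and 5.56 in the control, a difference of -2.16 (95% interval -2.81 to -1.51, adjusted p = 0.0246). Lhfpl2, a tetraspan membrane protein, was at 484 and 388 in QKO low and 1313, 1130.1 and 1089.5 in QKO high, and at 139, 78 and 73.5 in control low. QKO low was above control low in every library, and the QKO high range overlapped that of control high (2677, 1269 and 1873). The difference was -2.87 (adjusted p = 0.0308), with a rise of 1.43 in QKO (adjusted p = 0.0374) that was kept in 5 of 11 fits without 1 library (adjusted p up to 0.226 without QKO low replicate 3). Hdac6, a cytoplasmic deacetylase, was at 714 and 889 in QKO low and 859, 1009 and 1367 in QKO high, against 2493, 1884 and 2525 in control high. Its QKO difference was 0.41 (adjusted p = 0.405), and the difference of the responses -1.70 (adjusted p = 0.0471). None of the differences described here was called in all 11 fits without 1 library. Il33 was called in 10. Ch25h, Fgf1, Ndnf, Sorbs2 and Fzd4 were called in 3, Lhfpl2 and Tmem100 in 4, Meox2 in 2, and Hdac6 and Gstm1 in 1. Their highest adjusted p ranged from 0.128 to 0.279, without QKO low replicate 3 for Hdac6 and without QKO low replicate 1 for the others.

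**Figure D5:**
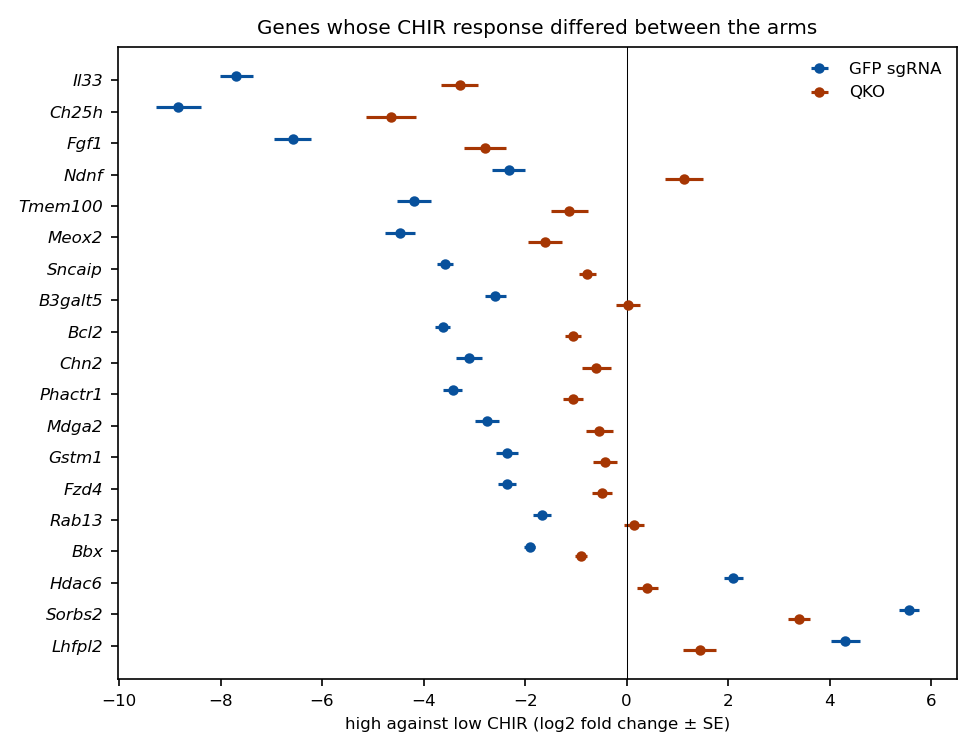
Log2 fold change of high against low CHIR in QKO and in the control for 19 of the 20 genes whose responses differed between them, with standard errors. The genes with a positive difference fell in the control, Il33 by 7.69 on the log2 scale against 3.29 in QKO, and the 3 with a negative difference rose there.

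The same dose contrast was available after removal of β-catenin itself, in a separate table with a knockout period a day shorter, so values are set side by side without a test. Each group there held 2 libraries, so counts of calls cannot be compared in size with those of QKO. By the paper, the Ctnnb1 guide was used in Cas9 cells, and Cre in cells homozygous for conditional Ctnnb1. Of 16780 genes tested there, 105 rose (0.626%) and 23 fell (0.137%) with the Ctnnb1 guide, and 47 rose (0.28%) and 2 fell (0.0119%) after Cre. In their controls 500 rose (2.98%) and 760 fell (4.53%) with a GFP guide, and 470 rose (2.8%) and 880 fell (5.24%) without Cre. Of the 225 genes raised in QKO, 209 were tested there, and 45 of them rose with the Ctnnb1 guide (21.5% of these and 42.9% of the 105) and 32 after Cre (15.3% and 68.1% of the 47). Of 177 lowered genes, 11 fell with the Ctnnb1 guide (6.21% of these and 47.8% of the 23) and 1 rose there, and none fell after Cre. In the controls, 120 and 127 of the 209 raised genes rose and 118 and 111 of the 177 lowered genes fell. The medians of the raised genes were 1.02 and 0.91 on the log2 scale, against 1.90 and 1.97 in their controls, and those of the lowered genes were -0.59 and -0.38, against -1.48 and -1.43. Over the wild-type induced genes the medians were 0.35 with the Ctnnb1 guide and 0.29 after Cre, against 0.78 and 0.92 in their controls. Over the repressed genes they were -0.25 and -0.22, against -1.04 and -1.25.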

How the data were processed

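RNA of NPCs was sequenced from libraries that do not mark strand. Transfected cells were sorted for mCherry, a step the paper does not describe for the wild-type cultures. The authors aligned reads with STAR to a combined mouse GRCm38 and human GRCh38 genome, counted uniquely aligned reads per gene with featureCounts and deposited DESeq2 normalized counts. These deposited values, a signal per gene divided by a size factor per library, are 1 table for the Tcf/Lef libraries and 2 for the others, normalized separately. A further 8 tables of the authors' own contrasts (log2 fold changes, adjusted p-values) were left unused. Whole reads were recovered from the steps of the values (100% whole within 0.01), giving 13089780 to 20152719 reads in 10 libraries. Control high replicate 2, whose step of 1.0113 was the nearest to 1, was left out of count tests by choice. Its values were whole to the same tolerance.

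Over all 11 libraries of the table, limma 3.58.1 in R 4.3.3 was fitted to log2 values after a pseudocount of 1, with 4 group means and no block. Genes with a mean of at least 10 were tested, and calls took a Benjamini-Hochberg adjusted p under 0.05, with a log2 difference of 0.5 or more in size. Wild-type and Ctnnb1 tables were fitted the same way. Count tests with edgeR 4.0.16 called 170 genes up and 183 down in QKO, and DESeq2 1.42.0 called 427 and 448. Same-numbered libraries deviated together from their group means (15 pairs, r from 0.21 to 0.64, against -0.64 to 0.07 for 30 other pairs), so the replicate number was fitted as a block where stated. It pairs libraries from the data, since no label says what a number shares. Deviations within a group cancel, so the 30 other pairs are not an independent background for the 15.

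Named genes were members of the gene lists, the 10 genes raised and 10 lowered most in QKO (called, mean of at least 50, groups without overlap), the 5 most positive and negative differences, and the 5 raised and lowered most in wild-type NPCs. A gene that the rule names is not reported here. The members and lists were chosen with earlier results of these data known. Guides were matched to GENCODE transcripts and promoters were taken from RefSeq. Alternatives were other pseudocounts, filters, scalings, tests and fold thresholds, the block, and fits without single libraries. Sampling intervals are not given for single values, and error bars cover the spread between libraries.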

Additional observations from a re-analysis of the deposited data

Results flagged for a closer look

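For 20 genes, the CHIR response differed between QKO and control by the test of the difference itself (limma, adjusted p under 0.05). The differences of 19 of them, QKO minus control on the log2 scale, were positive for Il33 (4.40), Ch25h (4.19), Fgf1 (3.79), Ndnf (3.45), Tmem100 (3.06), Meox2 (2.86), Sncaip (2.81), B3galt5 (2.61), Bcl2 (2.57), Chn2 (2.50), Phactr1 (2.38), Mdga2 (2.20), Gstm1 (1.94), Fzd4 (1.87), Rab13 (1.82) and Bbx (1.02). They were negative for Hdac6 (-1.70), Sorbs2 (-2.16) and Lhfpl2 (-2.87). Sncaip, B3galt5, Bcl2, Chn2, Phactr1, Mdga2, Rab13 and Bbx were named because they were among these 20, after their values were seen. Bcl2, which encodes an inhibitor of apoptosis, was at 3900.0 and 4385 in QKO low and 1906, 2022 and 2022 in QKO high, against 4764, 5341 and 3934 in control low and 326, 427 and 379.6 in control high. Its difference had an adjusted p of 0.000441, as had that of Sncaip. B3galt5, a galactosyltransferase gene, was at 349 and 258 in QKO low and 269, 351 and 299.9 in QKO high, and fell by 2.58 on the log2 scale in the control.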

How the results depend on the processing

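Counts of called genes moved with the fit, and so did the balance of raised and lowered genes. QKO counts of raised and lowered genes were 506 and 446 with the replicate block, 427 and 448 with DESeq2, 170 and 183 with edgeR, 124 and 38 without the 4 libraries numbered 1, and 40 and 13 without the 3 numbered 2, and ranged from 87 to 291 and from 27 to 228 without 1 library. Control counts were 664 and 676 without the libraries numbered 1, 311 and 285 without those numbered 2, and 692 and 771 without those numbered 2 and with the block, with 812 lowered at a log2 fold change of at least 1, and ranged from 758 to 1457 and from 789 to 1658. Positive and negative differences of the responses were 98 and 38 with the block, 80 and 33 with DESeq2, 9 and 2 with edgeR, and 5 and 1 without the libraries numbered 2 and with the block. They were 0 and 0 without the libraries numbered 1 (607 genes at an unadjusted p under 0.05) and 3 and 0 without those numbered 2 (390 genes), and ranged from 3 to 41 and from 0 to 9 without 1 library. The fits without libraries numbered 1 or 2 were chosen after seeing the data, and the cause of these shifts was not tested. Without those numbered 1, QKO low holds 1 library.

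With wild-type genes called at a log2 fold change of at least 2, the medians were 1.30 in QKO and 2.44 in the control for induced genes (53.4%) and -1.0 and -2.15 for repressed genes (46.3%). Without 1 library, the induced medians ranged from 0.61 to 0.80 in QKO and from 1.27 to 1.49 in the control (42.3% to 55.8%), and the repressed medians from -0.80 to -0.64 and from -1.72 to -1.38 (41.8% to 52.9%). Among genes named in the text, the block changed the QKO calls of Msx1, Sptlc3, C1ql4, Eya1, Hoxd11, Gapdh, Eno1, Pkm and Gdf15. It also changed the difference calls given beside the results. For genes within a few reads of 0, depth limits the size of a fold change.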
